A study of Mus musculus with 18 samples.

Results

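Cultured B16F10 cells, a C57BL/6J mouse melanoma line, were sequenced in 2 culture batches, and the 4 libraries of batch 2 were compared with the 4 of batch 1. These 8 were all of the culture libraries among the 18 of the series, chosen by the batch named in their titles. The other 10 came from tumours that shCTL and shHrs B16 cells formed in immunocompetent female C57BL/6 mice aged 6 to 8 weeks, 5 with each hairpin. Each batch held 2 libraries with a short hairpin RNA against Hgs (shHrs) and 2 with a scrambled hairpin (shCTL). Hgs encodes Hrs, the endosomal protein that gathers ubiquitinated membrane proteins for sorting. All cells had been infected with pLKO.1 lentivirus made in HEK293T cells and selected with puromycin at 2 µg/ml or blasticidin at 5 µg/ml for 5 days, so the controls carried a hairpin and a drug selection too. Which of the drugs was used in which batch is not given in the sources used here. The labels describe infected, selected and expanded cells and name no single clone. Growth was in DMEM with 10% FBS and 1% penicillin/streptomycin at 37 °C under 5% CO2, with passage every 2 to 3 days. The word batch is that of the sample titles: culture date, cell passage, density at harvest, library preparation and sequencing run cannot be told apart within it. The labels call the replicates biological repeats without saying what separated them, so p-values measure the spread between these libraries, part of which may be technical.

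Growth state can be read from groups of genes that share a regulator. When oxygen is short, hypoxia-inducible factor (HIF) is spared from degradation and switches on glucose uptake, glycolysis, lactate export and angiogenic signals, and dense cultures of glycolytic cells such as melanoma can reach that state without any change in the incubator. The integrated stress response acts through the translation of Atf4, which switches on amino acid import and synthesis together with Ddit3, Trib3 and Chac1. Heat shock factor raises chaperones when cytosolic proteins misfold, Nrf2 raises antioxidant enzymes, and dividing cells express replication genes in S phase and spindle genes in G2 and M phase.

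Total counts ran from 18491446 to 27578293 per library, and levels are given as CPM, counts scaled to a common library size, after TMM scaling. Hgs, on chr11:120467635-120483979 (mm10, plus strand), measured 96.2 and 116 CPM with shCTL and 36.3 and 30.3 CPM with shHrs in batch 1. In batch 2 it measured 100.1 and 108 CPM with shCTL and 44.2 and 40.1 CPM with shHrs. The shHrs libraries of both batches were thus below all shCTL libraries for the targeted gene, and its level did not pass the test between batches with either hairpin. The melanocyte genes Tyrp1, Dct, Pmel, Mlana, Mitf and Sox10 were detected in each of the 8 libraries, with Tyrp1 from 1872 to 7458 CPM. Markers of other cells were low: 12 macrophage genes summed to between 3.03 and 36.0 CPM in batch 1 and between 5.22 and 7.79 CPM in batch 2, with 4 of them at 0 throughout, and 10 fibroblast genes summed to between 20.7 and 57.3 CPM. Lymphocyte genes summed to at most 1.12 CPM and keratinocyte genes to at most 0.227 CPM; endothelial genes reached 14.1 CPM in batch 1 and 1.95 CPM in batch 2.

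Libraries stood apart within groups before any gene group was examined. The first principal component held 42.3% of the variance and set both batch 2 shHrs libraries (scores 40.1 and 57.3) apart from the other 6 (-30.3 to 8.06). The second held 28.5% and set batch 1 shHrs replicate 2 apart (-54.2, against -24.2 to 24.1 elsewhere). Batch accounted for 13.6% of the sum of squares over genes, treatment for 24.1%, their interaction for 24.6% and replicates within groups for 37.7%. Batch, treatment and interaction had 1 degree of freedom each and replicates had 4, so these shares are not on an equal footing. For some genes, the value without replicate 1 or replicate 2 of batch 1 shHrs is given too. Such a value rests on a single batch 1 shHrs library, so its SE holds no spread within that group.

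With treatment as a term, no gene passed: 0% of the 12617 genes tested had an adjusted p under 0.05 by edgeR's quasi-likelihood test, the smallest adjusted p being 0.306, while 5.51% had an unadjusted p under 0.05. DESeq2 called 30 genes in the same design. Within shCTL, 0% of 12897 genes passed, with 7.06% under an unadjusted 0.05 and a smallest adjusted p of 0.0649, where limma voom called 2 genes and DESeq2 129. Within shHrs, 158 genes passed, of which 53 (0.411% of those tested) rose in batch 2 and 105 (0.814%) fell. The difference between the batch effects with the 2 hairpins passed for 20 genes (0.155%). Independent of any model, all 4 libraries of batch 2 lay above all 4 of batch 1 for 1.32% of genes and below them for 1.08%. Of the 158 genes called within shHrs, 3 also separated all 8 libraries, close to the share of all genes in both directions together. The calls within shHrs numbered 0 whenever any single batch 2 library was left out, 64 and 66 without either batch 1 shCTL library, and 1343 and 1006 without batch 1 shHrs replicate 1 and replicate 2, where all 158 remained. A fit of the 4 shHrs libraries alone called 0 genes, with 1800 at an unadjusted p under 0.05.

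**Figure D1:**
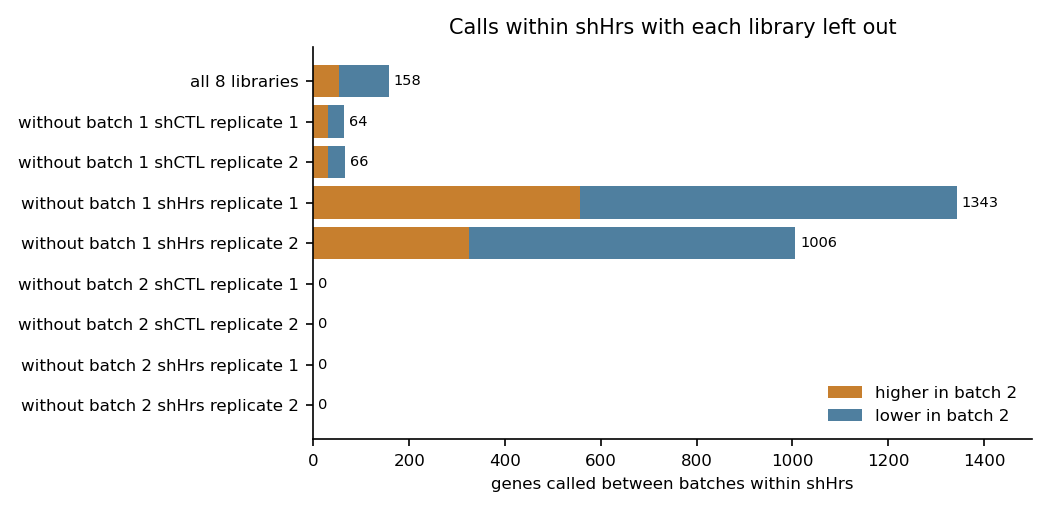
Number of genes called between batches within shHrs (horizontal axis) with all 8 libraries and with each library left out, as bars stacked by direction. The count runs from 0 without any single batch 2 library to 1343 without batch 1 shHrs replicate 1, against 158 with all 8.

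Among 32 gene lists, glycolysis, cholesterol synthesis and hypoxia genes had the lowest medians with shCTL and integrated stress genes the highest. With shHrs, G2 and M phase genes and integrated stress genes had the lowest medians and heat shock genes the highest. A list is described here by counts and by its median log2 difference (batch 2 minus batch 1), beside the median of all genes tested, which was -0.02 with treatment as a term, -0.001 within shCTL and -0.03 within shHrs. As these are bulk libraries, fewer cells in a state and less RNA per cell cannot be told apart.

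**Figure D2:**
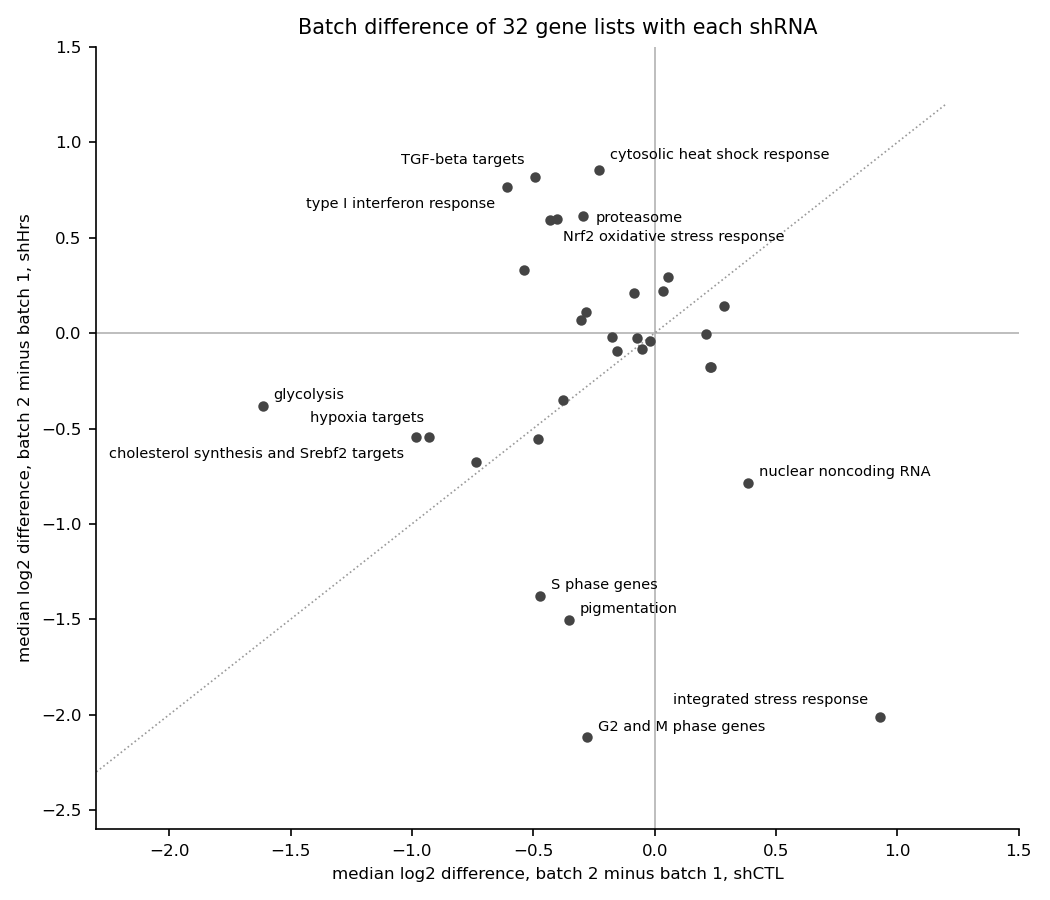
Median log2 difference between batches of each of 32 gene lists with shCTL (horizontal axis) and with shHrs (vertical axis); each point is a list and the dotted line marks equal differences. Glycolysis lies at -1.62 and -0.38, G2 and M phase genes at -0.28 and -2.12, and the integrated stress response at 0.93 and -2.01.

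All 20 glycolysis genes had negative differences with treatment as a term, with a median of -0.97, and 15 of them had an unadjusted p under 0.05, against the 5.51% of all genes; none passed after adjustment. With shCTL the median was -1.62 and 16 of 20 had an unadjusted p under 0.05 (7.06% of all genes), and with shHrs the median was -0.38 (-0.04 without batch 1 shHrs replicate 1). The list's mean log2 CPM was 9.55 and 9.29 in batch 1 shCTL, 8.78 and 8.36 in batch 1 shHrs, 8.06 and 7.96 in batch 2 shCTL and 8.09 and 8.17 in batch 2 shHrs. Every batch 1 library thus lay above every batch 2 library for the list as a whole, with both batch 1 shCTL libraries highest. For the difference between the batch effects, 16 of 20 genes had positive values with a median of 1.19, and none passed the test.

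Slc16a3, which encodes the lactate exporter Mct4 and lies on chr11:120948480-120960868 (plus strand), measured 273 and 258 CPM in batch 1 shCTL and 136 and 106 CPM in batch 1 shHrs. In batch 2 it measured 63.1 and 55.8 CPM with shCTL and 52.1 and 56.0 CPM with shHrs. No batch 2 library reached the lowest batch 1 library. The log2 difference was -1.66 ± 0.24 (SE) with treatment as a term, -2.16 ± 0.23 within shCTL (adjusted p = 0.0649, the smallest there) and -1.16 ± 0.22 within shHrs (adjusted p = 0.0542). Hk2, the hexokinase that starts glycolysis in tumour cells (chr6:82725025-82774454, minus strand), measured 314 and 292 CPM with shCTL and 208 and 316 CPM with shHrs in batch 1. It measured 127 and 124 CPM with shCTL and 79.8 and 66.9 CPM with shHrs in batch 2. The batches did not overlap. Beside 0.814% of all genes tested, Hk2 was the only 1 of 20 glycolysis genes to fall past the threshold within shHrs (log2 difference -1.84 ± 0.26, adjusted p = 0.0367). Without batch 1 shHrs replicate 2 this difference was -1.50 ± 0.25. Within shCTL the difference was -1.27 ± 0.26 (adjusted p = 0.264). Pgam1, phosphoglycerate mutase, was the third glycolysis gene whose batches did not overlap, with 437 to 820.0 CPM in batch 1 and 265 to 420.4 CPM in batch 2. These 3 of 20 stand beside the 1.08% of all genes that lay lower without overlap.

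For Ldha, Slc2a1 and Gapdh the fitted difference was more negative with shCTL than with shHrs, and none passed the test. Ldha, which makes lactate from pyruvate, measured 3493 and 4257 CPM in batch 1 shCTL and 1233 and 966 CPM in batch 2 shCTL. With shHrs it measured 2697 and 1319 CPM in batch 1 and 1616 and 1957 CPM in batch 2. The shCTL libraries of the batches lay far apart, while the batch 2 shHrs libraries lay between those of batch 1 shHrs; the log2 differences were -1.82 ± 0.36 (adjusted p = 0.259) and -0.17 ± 0.35 (adjusted p = 0.812). Slc2a1, the glucose transporter Glut1, measured 172 and 194 CPM against 49.6 and 47.2 CPM with shCTL, and 83.0 and 147 CPM against 101 and 98.2 CPM with shHrs. Its batch effects differed by 1.71 ± 0.40 on the log2 scale (adjusted p = 0.0958). Gapdh ran from 13260 to 14490 CPM in batch 1 shCTL and from 3712 to 4551 CPM in batch 2 shCTL, and from 5685 to 8338 and 5770 to 6838 CPM with shHrs. Gapdh, Ldha, Pgk1 and Pkm have near-identical processed copies in the mouse genome, so reads could have been split between copies and their levels are uncertain to that extent.

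**Figure D3:**
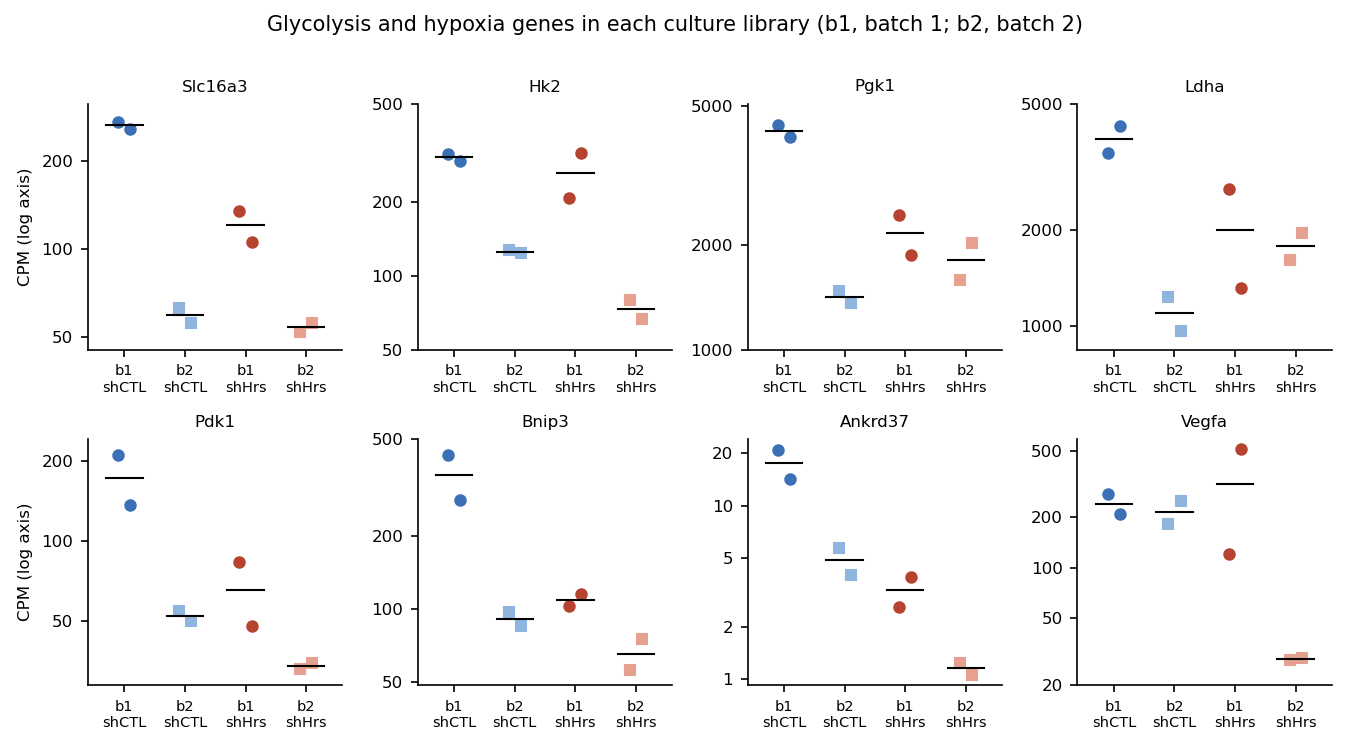
CPM (log axis) of 8 glycolysis and hypoxia genes in each culture library, with 2 points per group and a line at their mean. Slc16a3, Hk2 and Bnip3 lay lower in all 4 batch 2 libraries, the shCTL libraries of Ldha and Pgk1 were lower in batch 2 while those of shHrs overlapped or lay close, and Vegfa was low only in the 2 batch 2 shHrs libraries (28.1 and 28.8 CPM).

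Among 30 tested hypoxia targets, 28 had negative differences with treatment as a term (median -0.78), 26 of 30 within shCTL (median -0.93) and 26 of 30 within shHrs (median -0.54). A single member, Vegfa, passed the test, and only within shHrs: 1 of 30 fell there, beside 0.814% of all genes tested. Bnip3, Kdm3a, Fam162a and Ak4 lay lower in all 4 libraries of batch 2 than in all 4 of batch 1, 13.3% of the list against 1.08% of all genes. Bnip3, a mitochondrial protein that promotes mitophagy, measured 432 and 282 CPM with shCTL and 103 and 115 CPM with shHrs in batch 1, and 97.3 and 85.0 CPM, then 55.9 and 75.1 CPM, in batch 2. The batch 1 shCTL libraries were highest and the batch 2 shHrs libraries lowest, and the difference was -1.35 ± 0.29 with treatment as a term. Ankrd37, a direct HIF target, measured 21.0 and 14.3 CPM with shCTL and 2.61 and 3.86 CPM with shHrs in batch 1, and 5.69 and 3.99 CPM, then 1.24 and 1.06 CPM, in batch 2. Within each hairpin its batches did not overlap, although over both hairpins they did. Selenbp1, a methanethiol oxidase placed on this list, had the most negative difference with treatment as a term apart from the low-count gene Stc1, at -2.11 ± 0.28 (adjusted p = 0.306).

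For Vegfa, the angiogenic growth factor, the batches separated with shHrs only. It measured 276 and 209 CPM with shCTL and 121 and 509.7 CPM with shHrs in batch 1, and 182 and 251 CPM, then 28.1 and 28.8 CPM, in batch 2. The shCTL libraries of the batches overlapped and both batch 2 shHrs libraries were below all others. Vegfa fell by 3.47 ± 0.60 within shHrs (adjusted p = 0.0426), and by 2.09 without batch 1 shHrs replicate 2. Vegfa is also known as a target of Atf4. On the same list, Pfkfb3 and Mxi1 had log2 differences of 0.74 and 0.37 with shCTL and -1.83 and -1.48 with shHrs, without passing. Egln3, the HIF-induced prolyl hydroxylase, had differences of opposite sign, -1.79 ± 0.44 with shCTL and 1.07 ± 0.44 with shHrs, neither past the threshold.

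Promoter sequences are shown for Ldha, Bnip3 and Ankrd37, known HIF targets whose values are given above and none of which passed the test, since HIF binds DNA at the core ACGTG. Of the hypoxia genes with a RefSeq promoter, 20 of 25 (80.0%) held ACGTG on either strand in the 300 bases around the start, as did 12 of 19 glycolysis genes (63.2%) and 29.6% of the 10255 tested genes with a promoter. The letters also occur in CACGTG, the E-box, which reads the same on both strands and is bound by Myc and Mitf. The 150 bases before the start of Ldha (chr7:46845654-46845803, plus strand), Bnip3 (chr7:138909507-138909656, minus strand) and Ankrd37 (chr8:45999851-46000000, minus strand) are given 5′ to 3′ on GRCm38.p6 from RefSeq, with each match in capitals, CACGTG where both strands match and CACGT where it lies on the other strand.
Ldha: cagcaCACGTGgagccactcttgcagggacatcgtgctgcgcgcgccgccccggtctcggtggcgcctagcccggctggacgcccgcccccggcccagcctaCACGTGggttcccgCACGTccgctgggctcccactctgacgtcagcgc
Bnip3: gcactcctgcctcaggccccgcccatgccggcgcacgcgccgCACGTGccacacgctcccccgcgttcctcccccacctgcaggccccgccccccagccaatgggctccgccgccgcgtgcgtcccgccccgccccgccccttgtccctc
Ankrd37: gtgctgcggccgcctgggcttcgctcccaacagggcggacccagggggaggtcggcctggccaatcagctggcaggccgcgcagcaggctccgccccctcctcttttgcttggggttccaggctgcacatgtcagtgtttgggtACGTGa
The match nearest the start began at -34 in Ldha, -107 in Bnip3 and -6 in Ankrd37, and Ldha held further matches upstream. A match is a description of the letters only, and binding was not measured. The shares above cover all tested members with a promoter, whatever their batch difference. The hypoxia list was made of known targets, so a high share was fixed in advance. Neither share says anything about the batches.

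Differences of the integrated stress genes had mostly opposite signs with each hairpin when all 8 libraries were used. Within shCTL, 36 of 37 tested members had positive differences, with a median of 0.93 and none past the threshold. Within shHrs, all 37 had negative differences, with a median of -2.01, and 6 of 37 fell, beside 0.814% of all genes tested: Chac1, Slc7a1, Mthfd2, Ddr2, Slc7a5 and Atf4. The difference between the batch effects was negative for all 37 (median -2.74) and passed for none, the lowest adjusted p among the named members being 0.0508, for Chac1. The list's mean log2 CPM was 6.93 and 6.23 in batch 1 shCTL, 6.78 and 8.67 in batch 1 shHrs, 7.50 and 7.79 in batch 2 shCTL and 6.22 and 6.35 in batch 2 shHrs. Batch 1 shHrs replicate 2 held by far the highest level. Without it the median within shHrs was -0.25, with 13 of 37 members positive, and the 6 called members had log2 differences from -5.34 to -1.66. Leaving out any other shHrs library gave medians from -2.35 to -1.82.

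Chac1, which degrades glutathione and is among the most responsive Atf4 targets (chr2:119351229-119354381, plus strand), measured 85.6 and 20.7 CPM with shCTL and 118 and 439 CPM with shHrs in batch 1. It measured 103 and 207 CPM with shCTL but 3.04 and 2.81 CPM with shHrs in batch 2. The batch 2 shHrs libraries were below all 6 others, and Chac1 fell by 6.57 ± 0.94 on the log2 scale within shHrs (adjusted p = 0.0367) against a difference of 1.54 ± 0.75 within shCTL (adjusted p = 0.725). Atf4 itself (chr15:80255184-80257541, plus strand) measured 491 and 258 CPM with shCTL and 605 and 984 CPM with shHrs in batch 1, and 606 and 599.6 CPM, then 161 and 222 CPM, in batch 2. Its transcript fell by 2.05 ± 0.38 within shHrs (adjusted p = 0.0455). The amino acid carriers Slc7a5 and Slc7a1 fell with it, Slc7a5 from 517 and 708 CPM to 137 and 117 CPM (log2 difference -2.27 ± 0.37, adjusted p = 0.04) and Slc7a1 from 484 and 953 CPM to 169 and 90.6 CPM (log2 difference -2.47 ± 0.42). Mthfd2, the mitochondrial folate enzyme, went from 457 and 797 CPM to 115 and 117 CPM and fell by 2.43 ± 0.40. Without batch 1 shHrs replicate 2, Chac1 fell by 5.34 ± 0.68, Atf4 by 1.66 ± 0.37 and Slc7a1 by 1.90 ± 0.36. Slc7a5 and Mthfd2 then had log2 differences of -2.03 ± 0.37 and -1.98 ± 0.36. Each of Atf4, Slc7a5, Slc7a1 and Mthfd2 had both batch 2 shHrs libraries below the other 6.

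Ddit3 and Trib3, effectors of the same response, measured 141 and 736 CPM and 162 and 1034 CPM in batch 1 shHrs, against 44.1 and 63.6 CPM and 17.0 and 25.6 CPM in batch 2 shHrs. Their spread between the batch 1 replicates was wide and neither passed (adjusted p = 0.0979 and 0.0633). Without batch 1 shHrs replicate 2 the difference was -1.39 for Ddit3 and -2.93 for Trib3. Asns, asparagine synthetase, had a difference of 1.05 ± 0.45 with shCTL and -0.69 ± 0.45 with shHrs, also without passing. In the separate list of the endoplasmic reticulum's unfolded protein response, 1 of 24 members fell past the threshold within shHrs, beside 0.814% of all genes tested. That member was Herpud1, a factor in the degradation of misfolded proteins, which went from 141 and 372 CPM to 18.6 and 16.9 CPM. Herpud1 fell by 3.85 ± 0.54 (adjusted p = 0.0367), and by 2.99 without batch 1 shHrs replicate 2. Hspa5, the main chaperone of that compartment, measured 825 and 4379 CPM in batch 1 shHrs and 1189 and 1430.0 CPM in batch 2 shHrs, with overlapping ranges. The list's median was -0.16 within shCTL and -0.10 within shHrs.

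Cytosolic chaperone genes lay higher in batch 2 with shHrs. Of 23 tested heat shock genes, 21 had positive differences within shHrs (median 0.86), and 3 of 23 rose, beside 0.411% of all genes tested: Hspb7, Hspa1b and Dnajb4. Within shCTL, 7 of 23 were positive (median -0.23) and none passed. The list's mean log2 CPM was 7.88 and 8.09 in batch 2 shHrs and between 6.62 and 7.18 in the other 6 libraries, which did not overlap with them. Hspa1b, the inducible Hsp70 (chr17:34956436-34959238, minus strand), measured 7.79 and 8.61 CPM with shCTL and 9.28 and 4.88 CPM with shHrs in batch 1, and 7.98 and 4.58 CPM, then 42.2 and 37.1 CPM, in batch 2. It rose by 2.49 ± 0.40 within shHrs (adjusted p = 0.04). Its near-identical copy Hspa1a was listed at 0 or close to it in all 8 libraries and was not tested, so reads of the pair may have been assigned to Hspa1b. Hspb7, a small heat shock protein (chr4:141420779-141425311, plus strand), measured 98.8 and 99.3 CPM in batch 2 shHrs and between 3.57 and 37.8 CPM elsewhere. It rose by 3.86 ± 0.60 within shHrs (adjusted p = 0.04) against a difference of -2.39 ± 0.57 within shCTL, and the difference between these effects passed (adjusted p = 0.0428).

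**Figure D4:**
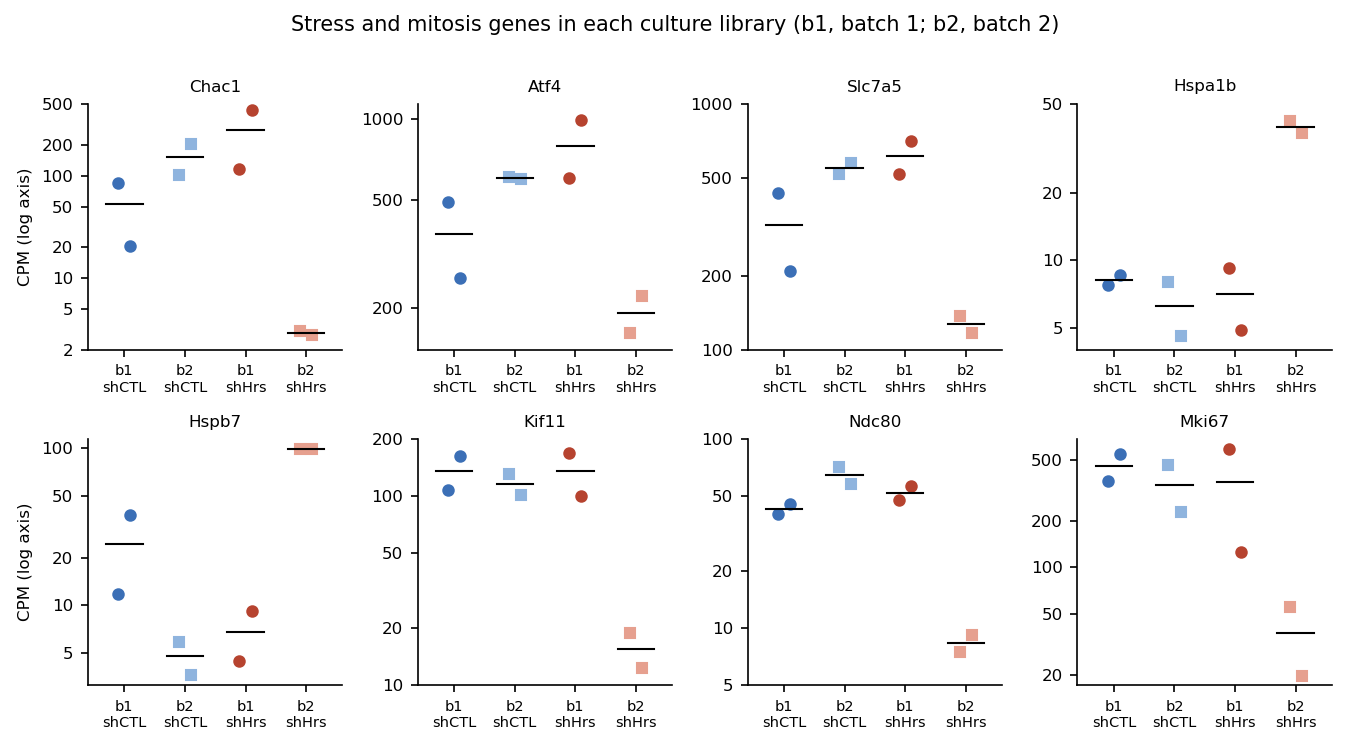
CPM (log axis) of 8 stress and mitosis genes in each culture library, with 2 points per group and a line at their mean. The 2 batch 2 shHrs libraries lay below the other 6 for Chac1, Atf4, Slc7a5, Kif11, Ndc80 and Mki67 and above them for Hspa1b and Hspb7.

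All 31 tested proteasome subunits had positive differences within shHrs (median 0.61, none past the threshold) and 7 of 31 within shCTL (median -0.30). The medians were 0.39 within shHrs without batch 2 shHrs replicate 2 and -0.03 within shCTL without batch 1 shCTL replicate 2. In the Nrf2 list, 16 of 22 were positive within shHrs (median 0.59) and 3 of 22 within shCTL (median -0.43). Leaving out a shHrs library gave Nrf2 medians from 0.31 to 0.90. Of the 22, 1 rose past the threshold within shHrs, beside 0.411% of all genes tested. That member was Taldo1, transaldolase of the pentose phosphate pathway, which went from 114 and 97.9 CPM to 242 and 332 CPM (log2 difference 1.44 ± 0.25, adjusted p = 0.0426). Nqo1, the quinone reductase often used as an Nrf2 readout, measured 65.5 and 63.9 CPM in batch 2 shHrs and between 3.94 and 15.6 CPM in the other 6 libraries, without passing (adjusted p = 0.0675). Hmox1, heme oxygenase, was instead split within groups, with 86.3 and 519 CPM in batch 1 shCTL and 65.2 and 577 CPM in batch 1 shHrs.

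The cell cycle carried the largest group of calls. Of 53 tested G2 and M phase genes, 19 fell within shHrs, against 0.814% of all genes tested, and none rose; 51 of 53 had negative differences (median -2.12). Within shCTL, 45 of 53 were negative with a median of -0.28 (-0.03 without batch 2 shCTL replicate 2) and none passed. With treatment as a term all 53 were negative (median -1.12), 38 had an unadjusted p under 0.05 and none passed after adjustment. The list's mean log2 CPM was 6.67 and 6.996 in batch 1 shCTL, 6.93 and 6.09 in batch 1 shHrs, 6.83 and 6.26 in batch 2 shCTL and 5.02 and 4.75 in batch 2 shHrs. Both batch 2 shHrs libraries lay more than 1 log2 unit below the lowest of the other 6. Leaving out a shHrs library gave medians from -2.41 to -1.45.

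Kif11, the kinesin that pushes spindle poles apart (chr19:37376403-37421859, plus strand), measured 108 and 162 CPM with shCTL and 169.7 and 101 CPM with shHrs in batch 1, and 131 and 101 CPM, then 18.9 and 12.3 CPM, in batch 2. It fell by 3.12 ± 0.38 within shHrs (adjusted p = 0.0345). Ndc80, which attaches kinetochores to microtubules (chr17:71496100-71526857, minus strand), measured 40.2 and 45.3 CPM with shCTL and 47.6 and 56.6 CPM with shHrs in batch 1, and 71.0 and 57.9 CPM, then 7.50 and 9.16 CPM, in batch 2. Here the shCTL libraries of batch 2 were the highest and the shHrs libraries of batch 2 the lowest. Ndc80 fell by 2.64 ± 0.25 within shHrs (adjusted p = 0.0264), its difference within shCTL was 0.59 ± 0.23, and the difference between them was -3.23 ± 0.34 (adjusted p = 0.0285). Hmmr, Bub1 and Ccnb1, a spindle factor, a checkpoint kinase and the mitotic cyclin, fell by 2.88 ± 0.38, 2.73 ± 0.43 and 2.50 ± 0.34 within shHrs. Without batch 1 shHrs replicate 1 the log2 differences were -2.72 for Hmmr, -1.94 for Bub1, -2.28 for Ccnb1, -2.68 for Kif11 and -2.75 for Ndc80. Mki67, the proliferation marker, measured 364, 546, 591 and 125 CPM in batch 1 and 459, 229, 55.5 and 19.8 CPM in batch 2, in the order shCTL then shHrs. Its batch 1 shHrs replicates differed from each other more than most, and it did not pass (adjusted p = 0.0835).

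S phase genes had negative differences for all 44 tested members with treatment as a term (median -0.85, 27 with an unadjusted p under 0.05). All 44 were also negative within shHrs (median -1.38), where 1 of 44 fell past the threshold, beside 0.814% of all genes tested. Within shCTL, 41 of 44 were negative, with a median of -0.47 (-0.06 without batch 1 shCTL replicate 2). Pcna, the sliding clamp of replication, lay lower in all 4 libraries of batch 2 (161 to 220 CPM) than in all 4 of batch 1 (243 to 479.5 CPM), as did Ung. Replicates spread widely on this list: batch 1 shHrs stood at 6.58 and 5.53 mean log2 CPM, and without its replicate 1 the median within shHrs was -0.60. Myc, a growth regulator on the list of immediate early genes, fell within shHrs from 98.1 and 160.5 CPM to 43.4 and 26.9 CPM. Its log2 difference was -1.88 ± 0.34 (adjusted p = 0.0444), and -1.49 ± 0.32 without batch 1 shHrs replicate 2.

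**Figure D5:**
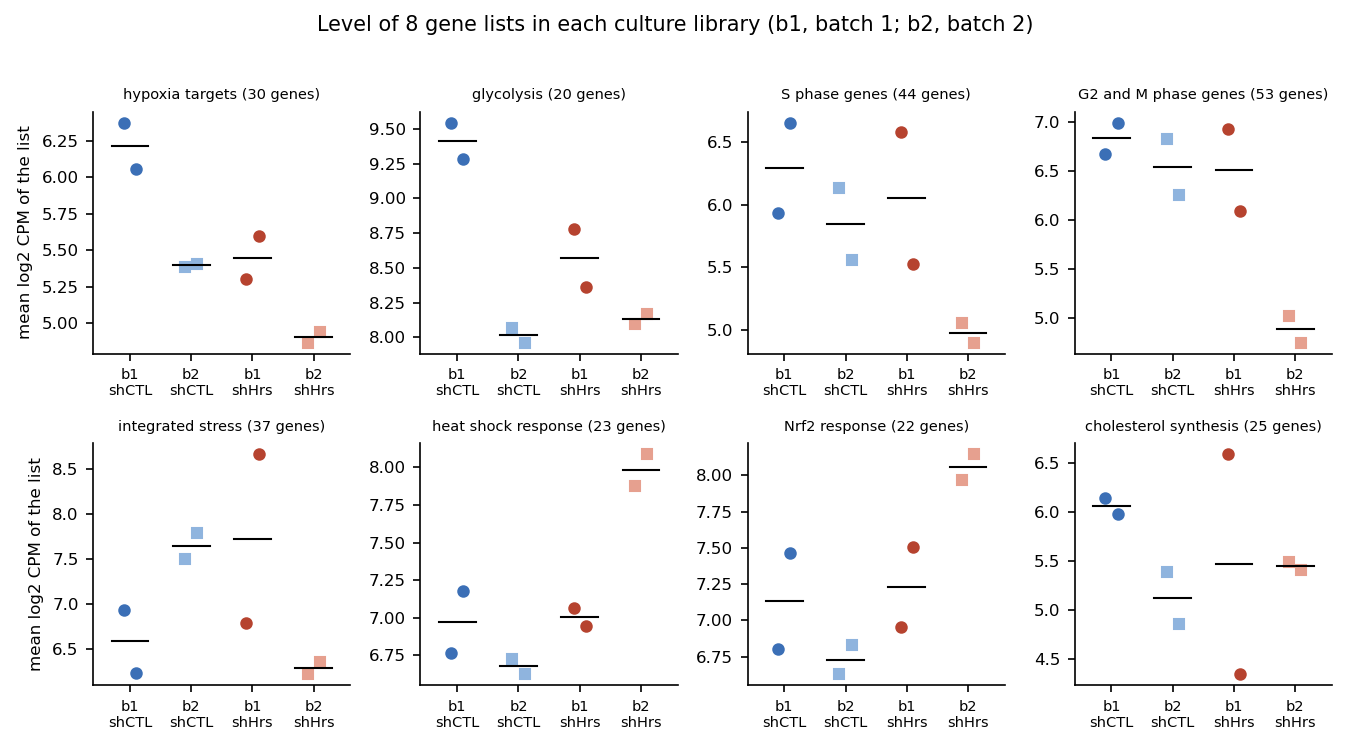
Mean log2 CPM of 8 gene lists in each culture library, with 2 points per group and a line at their mean. Glycolysis was highest in batch 1 shCTL (9.55 and 9.29), G2 and M phase genes were lowest in batch 2 shHrs (5.02 and 4.75), and the integrated stress list was highest in batch 1 shHrs replicate 2 (8.67).

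The promoters of these groups are shown for the same reason as above, with Kif11, Ccnb1 and Hspa1b, which passed the test within shHrs, and Asns, which did not. The cell cycle homology region (CHR), bound by the DREAM and MuvB complexes, was searched as TTTGAA or TTTAAA, heat shock factor as GAANNTTC, and the joint site of Atf4 and Cebp factors as TGATGNAA, all on both strands. The CHR occurred in 38 of 47 G2 and M promoters (80.9%), in 10 of 32 S phase promoters (31.2%) and in 22.2% of all promoters of tested genes. GAANNTTC occurred in 10 of 18 heat shock promoters (55.6%, against 6.84% of all) and TGATGNAA in 11 of 31 integrated stress promoters (35.5%, against 2.81% of all). Shown are Kif11 (chr19:37376232-37376381, plus strand), Ccnb1 (chr13:100786487-100786636, minus strand), Hspa1b (chr17:34959239-34959388, minus strand) and Asns (chr6:7693210-7693359, minus strand), with matches in capitals as before.
Kif11: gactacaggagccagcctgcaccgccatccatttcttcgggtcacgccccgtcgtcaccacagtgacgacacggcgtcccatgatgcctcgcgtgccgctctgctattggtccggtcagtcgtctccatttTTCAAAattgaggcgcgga
Ccnb1: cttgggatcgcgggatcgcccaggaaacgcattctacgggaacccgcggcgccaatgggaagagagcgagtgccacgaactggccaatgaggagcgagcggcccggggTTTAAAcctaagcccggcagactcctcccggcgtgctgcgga
Hspa1b: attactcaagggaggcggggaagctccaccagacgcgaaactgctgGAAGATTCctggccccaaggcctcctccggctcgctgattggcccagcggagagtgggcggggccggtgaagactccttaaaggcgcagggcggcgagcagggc
Asns: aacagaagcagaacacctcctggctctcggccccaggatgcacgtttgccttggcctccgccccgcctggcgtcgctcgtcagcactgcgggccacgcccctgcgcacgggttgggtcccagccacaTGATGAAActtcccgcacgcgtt
Counted from the RefSeq start, the matches began at -19 in Kif11, at -42 in Ccnb1, at -104 in Hspa1b and at -23 in Asns. As with HIF, the motif shares covered all tested members with a promoter, whatever their batch difference, in lists of genes known for each pathway. They say nothing about the batches.

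Pigmentation and sterol genes had negative medians with either hairpin and passed no test, while the levels of both lists overlapped between the batches. All 19 pigmentation genes had negative differences with treatment as a term (median -0.79), 17 of 19 within shHrs (median -1.50) and 16 of 19 within shCTL (median -0.35). Pmel, the scaffold of the melanosome, measured 3133 and 1116 CPM with shCTL and 4684 and 904 CPM with shHrs in batch 1, and 2276 and 1534 CPM, then 300.1 and 271 CPM, in batch 2. Its batch 2 shHrs libraries were lowest, but batch 1 replicates differed by several fold and the adjusted p within shHrs was 0.08. Without batch 1 shHrs replicate 1 the list's median within shHrs was -0.50, and without batch 1 shCTL replicate 1 its median within shCTL was 0.28. All 25 cholesterol synthesis genes had negative differences within shCTL (median -0.98). Within shHrs the median was -0.54 but turned to 1.05, with all 25 positive, without batch 1 shHrs replicate 1. The 2 batch 1 shHrs libraries stood at 6.59 and 4.34 mean log2 CPM, on either side of batch 2 (4.85 to 5.49).

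Interferon-stimulated and TGF-beta target genes had positive medians within shHrs. Of 43 tested interferon genes, 37 were positive within shHrs (median 0.76) and 5 within shCTL (median -0.61). Within shHrs, 1 of 43 rose past the threshold, beside 0.411% of all genes tested. That member was Ifi35, an interferon-induced protein, which went from 9.61 and 14.5 CPM to 37.2 and 51.7 CPM (log2 difference 1.88 ± 0.31, adjusted p = 0.0408). Isg15, the ubiquitin-like modifier, measured 4.45 and 107 CPM in batch 1 shHrs and 98.3 and 170.5 CPM in batch 2 shHrs, so a batch 1 replicate already reached the batch 2 level. The interferon median within shHrs was 0.18 without batch 1 shHrs replicate 1 and 1.93 without replicate 2, and within shCTL it was -0.25 without batch 1 shCTL replicate 1. Of 18 TGF-beta targets, 16 were positive within shHrs (median 0.82) and 4 within shCTL (median -0.49). The TGF-beta median within shHrs ran from 0.71 to 1.70 with a shHrs library left out, and within shCTL it was 0.0045 without batch 1 shCTL replicate 2. Of these 18, 2 rose past the threshold within shHrs, beside 0.411% of all genes tested. They were Id3 and Smad6, an inhibitor of differentiation and an inhibitory Smad, which rose by 4.35 ± 0.79 and 3.23 ± 0.59 on the log2 scale. Id3 measured 15.1 and 8.83 CPM in batch 1 shHrs, 197 and 291 CPM in batch 2 shHrs, and 163 CPM in batch 1 shCTL replicate 2, so its high level was not confined to batch 2.

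Most genes called within shHrs belonged to no list (121 of 158). Among the largest, Lims2, a focal adhesion adaptor, measured 16.2 and 13.2 CPM in batch 2 shHrs and between 0.586 and 5.89 CPM elsewhere, and rose by 4.54 ± 0.65 (adjusted p = 0.0367). Hr, a nuclear corepressor, measured 10.8, 25.1, 17.6 and 14.2 CPM in batch 1 and 34.2, 28.4, 164 and 139 CPM in batch 2, in the order shCTL then shHrs. Hr was among the 3 called genes whose batches did not overlap with either hairpin, and it rose by 3.26 ± 0.40 within shHrs against a difference of 0.81 ± 0.37 within shCTL. The largest falls outside the cell cycle lists included Aldh18a1, the first enzyme of proline synthesis. Aldh18a1 went from 266 and 446 CPM to 35.8 and 28.5 CPM. Its log2 difference was -3.47 ± 0.55 (adjusted p = 0.04), and -3.06 ± 0.51 without batch 1 shHrs replicate 2. Casc5, Kif15, Kntc1 and Depdc1a, genes of the kinetochore, the spindle and mitosis, also fell, by 2.99 to 3.15 on the log2 scale.

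Tumours are set beside the cultures here as another kind of sample and were not tested against them. The glycolysis list stood at 8.72 to 9.37 mean log2 CPM in the 5 shCTL tumours. On the same scale, shCTL cultures stood at 9.25 to 9.53 in batch 1, overlapping these tumours, and at 7.95 to 8.03 in batch 2, below them. The 5 shHrs tumours stood at 8.45 to 9.32, against 8.37 to 8.73 in batch 1 shHrs cultures and 8.10 to 8.21 in batch 2 shHrs cultures. The G2 and M list stood at 6.54 to 6.95 in the 10 tumours and at 4.79 to 5.03 in the batch 2 shHrs cultures. Differences within shHrs also moved with transcript length across genes: Spearman's rho between the log2 difference and length was -0.24 within shHrs and 0.06 within shCTL, over 12800 genes that share the same libraries. With treatment as a term, rho with length was -0.21. For the percentage of G and C in the transcript, rho was -0.18 within shCTL and 0.16 within shHrs. The part of transcript length and base content in these results was not tested.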

How the data were processed

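RNA-seq libraries of 8 B16F10 cultures (2 batches, 2 hairpins, 2 replicates each) were taken from a table of 18 libraries and 23453 gene symbols. The authors deposited raw read counts per gene; per the submitters' processing notes STAR 2.4.0h2, DESeq and the mm10 build were used. The tool that counted reads is not given in the sources used here, nor is its use of strand. Libraries held 18491446 to 27578293 counts. Here, counts were scaled by TMM and tested with edgeR 4.0.16 (R 4.3.3) by quasi-likelihood, with Benjamini-Hochberg adjustment over all genes kept by filterByExpr (minimum count 10) and a threshold of 0.05. One fit had batch and treatment as terms (12617 genes, 5 residual degrees of freedom). Another had a mean per group (12897 genes, 4 residual degrees of freedom) and gave the batch effect within each hairpin and the difference between these effects. List levels are means of log2(CPM + 2). Scripts were tested on simulated data. Alternatives used limma 3.58.1, DESeq2 1.42.0, other scalings and filters, a replicate block and each library left out.

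The comparison and the 37 gene lists were chosen with earlier results of these data known. Named genes are Hgs and a list of pathway genes, up to 4 called members with the largest difference of lists with 3 or more calls, and the 4 largest differences between the batch effects in each direction. The rule for the 10 largest genes in each direction was written for the fit with treatment as a term, which called 0 genes. After the data were seen, it was applied to the calls within shHrs. Its condition that batches not overlap was then asked of the shHrs libraries only. Other named genes were chosen after their values were seen, and some single genes are not reported here. Promoters are from RefSeq (GRCm38.p6).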

Additional observations from a re-analysis of the deposited data

Results flagged for a closer look

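For 6 genes, the batch effect with shHrs differed from that with shCTL by a test of the difference itself (edgeR, log2 scale, shHrs minus shCTL). Lims2, a focal adhesion adaptor, differed by 6.41 (adjusted p = 0.0428), Hspb7, a small heat shock protein, by 6.24 (adjusted p = 0.0428), Trim16 by 6.10 (adjusted p = 0.0285) and Plat, tissue plasminogen activator, by 5.26 (adjusted p = 0.0374). Ndc80 of the kinetochore differed by -3.23 (adjusted p = 0.0285) and Jdp2, a transcription factor of the AP-1 group, by -3.05 (adjusted p = 0.0374). These are the largest in each direction, predicted genes left out, of 20 genes past the threshold. No gene passed for this difference when any single batch 2 library, or batch 1 shCTL replicate 2, was left out.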

How the results depend on the processing

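With 2 libraries a group precision is low, and leaving 1 out assumes that the lone library varies like the other groups. With treatment as a term, DESeq2 called 30 genes and the test without a count filter 5, against 0; leaving out each library gave 0 throughout. Within shCTL, limma voom called 2, DESeq2 129 and no filter 291, against 0, and leaving out libraries gave 0 to 153. Within shHrs, DESeq2 called 1109, no filter 1360 and the 4 shHrs libraries alone 0, against 158, and leaving out libraries gave 0 to 1343. Library totals in place of TMM called 120 there (54 higher, 66 lower), and moved the median of all genes within shCTL to 0.13. For the difference between the batch effects, limma voom called 13, DESeq2 972 and no filter 1311, against 20, and leaving out libraries gave 0 to 1968. The cause was not tested.

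The labels do not say that replicate numbers pair libraries. Correlations of same-numbered deviations ran from -0.0008 to 0.583 over 6 pairs of groups and were not all over 0.1, so the numbers were not used as pairs. With the replicate block, 255 genes were called within shHrs (158 without it).

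With treatment as a term, the log2 differences of 18 named genes turned sign when a library was left out, none of them called. Their lowest and highest values were -0.98 and 0.10 for Egln3, -1.80 and 0.32 for Ddit3, -3.32 and 0.46 for Trib3, -0.22 and 0.57 for Asns, -1.82 and 0.70 for Atf3, -0.61 and 0.24 for Sesn2, -0.78 and 0.35 for Hspa5, -1.05 and 0.22 for Xbp1, and -1.42 and 0.0007 for Hmox1. They were -0.50 and 0.10 for Cdkn1a, -0.30 and 0.43 for Mdm2, -0.0639 and 0.17 for Cdkn1b, -0.59 and 0.84 for Txnip, -0.16 and 1.35 for Fos, -0.30 and 1.17 for Cyr61, -0.79 and 1.87 for Ctgf, -0.14 and 1.07 for Isg15, and -0.86 and 0.14 for Irf7. Mdm2 (-0.06) also turned to 0.0603 by limma voom, 0.0061 by upper-quartile scaling, 0.0478 by library totals and 0.0201 with the replicate block. Txnip (-0.01) turned to 0.24, 0.051 and 0.0918 by the first 3 of these, and Irf7 to 0.0536 by limma voom. List medians within each hairpin under other scalings and left-out libraries were alternatives chosen after seeing the data, as were differences of single genes within shHrs without either batch 1 shHrs library.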
